A study of Mus musculus with 24 samples.

Results

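Claudins and their partners at the tight junction were followed in 24 libraries of polyA RNA from mouse cells differentiating from epiblast to definitive endoderm, with and without the degrader dTAG13. The list held 9 genes, chosen by gene name, namely the claudins Cldn3, Cldn4, Cldn5, Cldn6, Cldn7, Cldn9 and Cldn12 with occludin (Ocln) and ZO-1 (Tjp1). Of these, 8 had a row among the 18205 genes of the deposited table, and Cldn5, the main claudin of endothelium, is not analysed here. All 8 passed the filter on low values, a normalised read count of at least 10 in at least 3 libraries, which left 15037 genes to be tested.

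Tight junctions seal the space between neighbouring epithelial cells near their apical border. Claudins are membrane proteins that polymerise into the strands of the seal, and the set of claudins a cell makes decides which ions and solutes pass. Occludin lies in the same strands, and ZO-1 is the scaffold that ties them to the actin skeleton. The epiblast is an epithelium that loosens at the primitive streak, and definitive endoderm becomes an epithelium again.

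All cells, the DMSO controls included, were BL6/129 hybrid and carried OTX2-dTAG-EGFP, a degradable and fluorescent form of OTX2, a homeobox factor of the epiblast and anterior embryo. The starting population, epiblast stem cells (EPI), was kept in medium with 20 ng/ml activin A, 12.5 ng/ml FGF2 and 175 nM NVP. To reach the primitive streak stage (PS), cells received 40 ng/ml activin A plus 3 µM CHIR, which switches on WNT signalling, over 16 h. Endoderm was then induced by 100 ng/ml activin A plus 100 nM LDN, a blocker of BMP receptors, and harvested after 24 h (DE1) and 48 h (DE2). Each of the 8 groups, a stage with either 21 h of dTAG13 or its vehicle DMSO, holds 3 libraries, and these come from the cell lines 7H, 7H1 and 7H2. The labels place the additions of dTAG13 at the EpiSC, PS or DE1 stage without tying each to a harvest. For PS, whose induction took 16 h, 21 h of exposure would have begun before it. The cell state in which OTX2 was first depleted is therefore not known for every group. The labels do not say whether the lines share an origin, and the tests cover these 3 lines. The aim stated in the labels was to identify OTX2-dependent genes stage by stage.

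Levels are normalised read counts as the authors deposited them, with library totals of 24.42 to 27.25 M and 15260 to 16536 genes detected per library. Fold changes were taken on log2(value + 1), a scale that understates changes of low genes, and are given with their standard error (SE). Tests are limma's, on all 24 libraries, and a gene counts as called when its Benjamini-Hochberg adjusted p over all genes tested is under 0.05. The adjusted p with the cell line as a block, which compares treatments within a line, stands beside a result where it changes the call. dTAG13 acts on the protein, so the Otx2 transcript does not measure the depletion, and in the EPI stage it read 1476 to 1817 with DMSO and 2302 to 2949 with dTAG13. The summed level of 10 primitive streak markers went from 3819 to 9644 in EPI to 104083 to 110971 in PS, and that of 10 definitive endoderm markers from 17875 to 30816 in PS to 119374 to 142233 in DE1, all in DMSO. In bulk RNA, fewer cells of a type and less RNA per cell cannot be told apart.

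Cldn6 was by mean level per kb the main claudin transcript at every stage, and the claudins as a group were highest in DE2. dTAG13 went with a change in the amounts of several claudin transcripts in DE2. There Cldn3 fell 6.18-fold, Cldn6 rose 1.56-fold and Cldn7 1.73-fold (ratios of means over 3 lines). Without line 7H2 the Cldn3 ratio was 10.1. Cldn4, the chromosomal neighbour of Cldn3, was 3.11-fold higher. It did not pass in the limma fit of all libraries without a block (adjusted p = 0.115). Cldn4 passed with the cell line as a block (4.35e-07), and without it when only the DE2 groups were fitted (0.000668). Ocln, Tjp1, Cldn9 and Cldn12 passed none of these. In DE1 no member passed in the fit of all libraries as deposited without the block. With only the DE1 groups fitted, Cldn7 (adjusted p = 0.00527) and Ocln (0.0326) passed without it. With the block Cldn7, Ocln and Cldn3 passed in DE1, lower with dTAG13 in every line, and Cldn4 passed, higher in every line (adjusted p = 0.0115). Of these block calls only that of Cldn7 held without any 1 line.

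Per kb of exon, which allows levels of different genes to be compared, Cldn6 stood at 1711 ± 75.5 (SD, n = 3) in EPI with DMSO, 1363 ± 304 in PS, 3497 ± 305 in DE1 and 5284 ± 658 in DE2. Cldn6 marks the epiblast and other embryonic epithelia. Its share of the summed level per kb of the 6 measured claudins was 46.9% ± 8.54 in EPI, 58.2% ± 4.45 in PS, 75.8% ± 2.07 in DE1 and 57.1% ± 2.48 in DE2. Cldn7 came next in EPI at 36.3% ± 4.41, so Cldn6 and Cldn7 together made up most of the claudin message there. In DE2 the second place went to Cldn4 at 22.2% ± 0.783.

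The summed level per kb of the 6 claudins was 10030, 8279 and 9412 in DE2 with DMSO (lines 7H, 7H1 and 7H2, the order used throughout). With dTAG13 it was 16120, 15880 and 19910, so the groups did not overlap. Cldn4 made up 36.8% ± 2.2 of that sum with dTAG13, against 22.2% ± 0.783 with DMSO, while Cldn6 made up 47.7% ± 0.408 against 57.1% ± 2.48. Cldn3 went from 2.96% ± 0.585 to 0.241% ± 0.163. In EPI, PS and DE1 the sums of both treatments overlapped. Within lines the PS sum was higher with dTAG13 in all 3, at 2277, 3535 and 2972 against 1896, 2485 and 2607, while in EPI and DE1 the lines differed in sign.

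**Figure D1:**
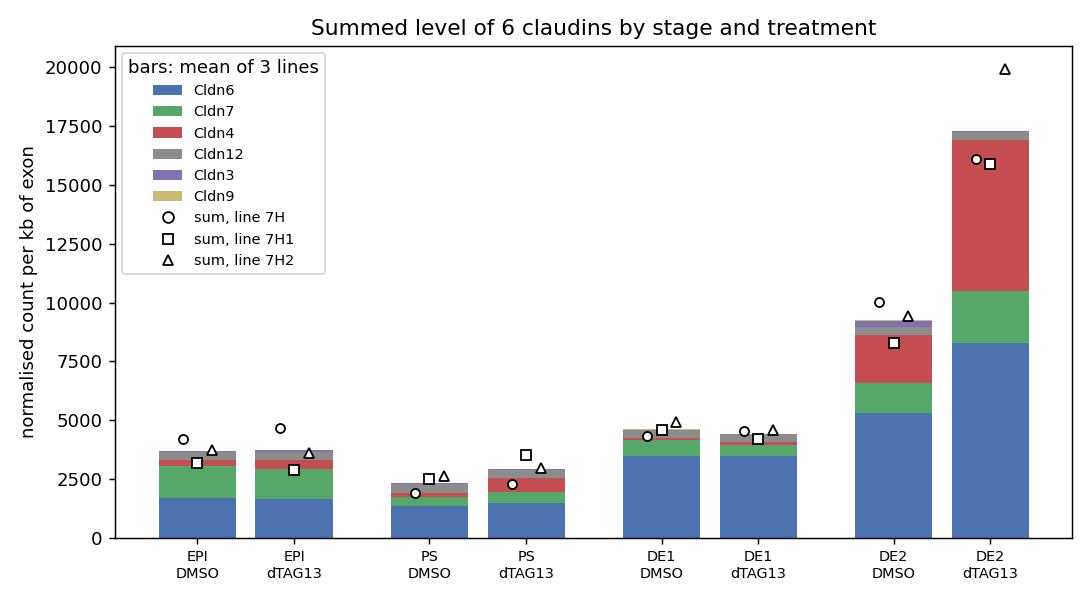
Normalised read count per kb of exon (vertical axis, linear from 0) for 6 claudins, stacked as means of 3 lines, for each stage and treatment (horizontal axis). Circles, squares and triangles are the sums in lines 7H, 7H1 and 7H2. The DE2 bars are the highest, and the dTAG13 bar there, with a mean of 17300, stands above the DMSO bar at 9242 mostly through Cldn4 and Cldn6.

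The vehicle cells show the course of each gene without depletion. From EPI to PS, 5 of the 8 members were called, against 27.5% of all genes. These were Cldn7, Ocln, Tjp1 and Cldn3 on the lower side (12.8% of all genes) and Cldn9 on the higher (14.6%). From PS to DE1, 4 were called, all higher (Cldn6, Cldn7, Ocln and Tjp1), against 44.1% of all genes called and 21.7% called higher. With only the groups compared in the fit Cldn4 was also called there, lower by -0.92 (adjusted p = 0.0413). From DE1 to DE2, 5 were called, all higher (Cldn3, Cldn4, Cldn6, Cldn7 and Ocln), against 39.3% of all genes called and 20.2% called higher. The medians over the 8 members were -0.41, 0.06 and 0.77 on the log2 scale, beside -0.011, -0.01 and 0.021 over all genes tested. Successive steps share the middle stage, so they are not independent.

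Ocln (ENSMUSG00000021638), on chromosome 13 from 100496507 to 100552718, had the lowest log2 change of the members at the streak. In DMSO it read 679, 423 and 567 in EPI, 86.9, 79.4 and 64.4 in PS, 206, 327 and 207 in DE1, and 1191, 1410 and 1438 in DE2. No neighbouring stages overlapped. Ocln fell by 2.82 on the log2 scale (SE 0.33, adjusted p = 2.35e-06) into PS, then rose by 1.64 (SE 0.33, adjusted p = 0.000324) and 2.47 (SE 0.33, adjusted p = 5.29e-06).

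Cldn7 (ENSMUSG00000018569), on chromosome 11 from 69964779 to 69967885, is a claudin of lateral membranes known to bind EpCAM and followed the same course. It read 3168, 1941 and 2840 in EPI, 524, 846 and 702 in PS, 1270, 1421 and 1202 in DE1, and 2359, 2502 and 2692 in DE2, all with DMSO. The log2 changes were -1.94 (SE 0.21, adjusted p = 1e-06), 0.93 (SE 0.21, adjusted p = 0.00103) and 0.96 (SE 0.21, adjusted p = 0.00101). The last of these was not called without line 7H2 (adjusted p = 0.0678). Over the 24 libraries Cldn7 and Ocln correlated at a Pearson's r of 0.932, the highest of the pairs among the 8 members, a description across libraries that share stages.

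Tjp1 (ENSMUSG00000030516), the ZO-1 scaffold gene on chromosome 7 from 65296165 to 65527781, had the smallest change of the members called at the streak. It read 7734, 6556 and 8075 in EPI with DMSO and 5770, 5727 and 4717 in PS, a log2 change of -0.46 (SE 0.15, adjusted p = 0.0216). The next step to 6602, 7053 and 7608 in DE1 was 0.39 (SE 0.15, adjusted p = 0.0322). Both calls depended on the lines: the first was lost without 7H (adjusted p = 0.0607) or 7H2 (0.237), the second without 7H1 (0.0905) or 7H2 (0.255), with libraries rescaled to equal totals (0.0556) and without the intensity trend (0.0505).

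Cldn6 (ENSMUSG00000023906), on chromosome 17 from 23679249 to 23682446, read 2809, 3068 and 2956 in EPI with DMSO and 1796, 2401 and 2838 in PS, and the groups overlapped. That difference of -0.35 (SE 0.16) was not called (adjusted p = 0.107), but was with libraries rescaled to equal totals (adjusted p = 0.0416). Into DE1 it rose to 5561, 5903 and 6591, by 1.38 (SE 0.16, adjusted p = 5.92e-07), and into DE2 to 10318, 8085 and 8881, by 0.59 (SE 0.16, adjusted p = 0.0055). The last step was not called without 7H1 (adjusted p = 0.0546).

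Cldn3 and Cldn4, which both serve as receptors of a clostridial enterotoxin, rose most in the last step. Cldn3 went from 23.8, 25.8 and 21.1 in DE1 to 300, 310 and 420 in DE2, by 3.79 on the log2 scale (SE 0.49, adjusted p = 4.44e-06). Cldn4 went from 238, 157 and 119 to 4109, 3203 and 3889, by 4.49 (SE 0.68, adjusted p = 5.2e-05). Neither pair of groups overlapped, and the DE2 means were 14.5 and 21.8 times those of DE1. Cldn3 had fallen from 134, 74.3 and 92.1 in EPI to 28.7, 41.6 and 31.3 in PS, by 1.51 (SE 0.49, adjusted p = 0.0266), a call lost without 7H (0.257) or 7H2 (0.131).

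Under quantile normalisation the median of all genes in the last step shifted by -0.105 on the log2 scale, and the same 5 members were called. Rescaling to equal totals moved the split of calls over all genes from EPI to PS to 1693 higher and 2362 lower, beside 2200 and 1932 as deposited.

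**Figure D2:**
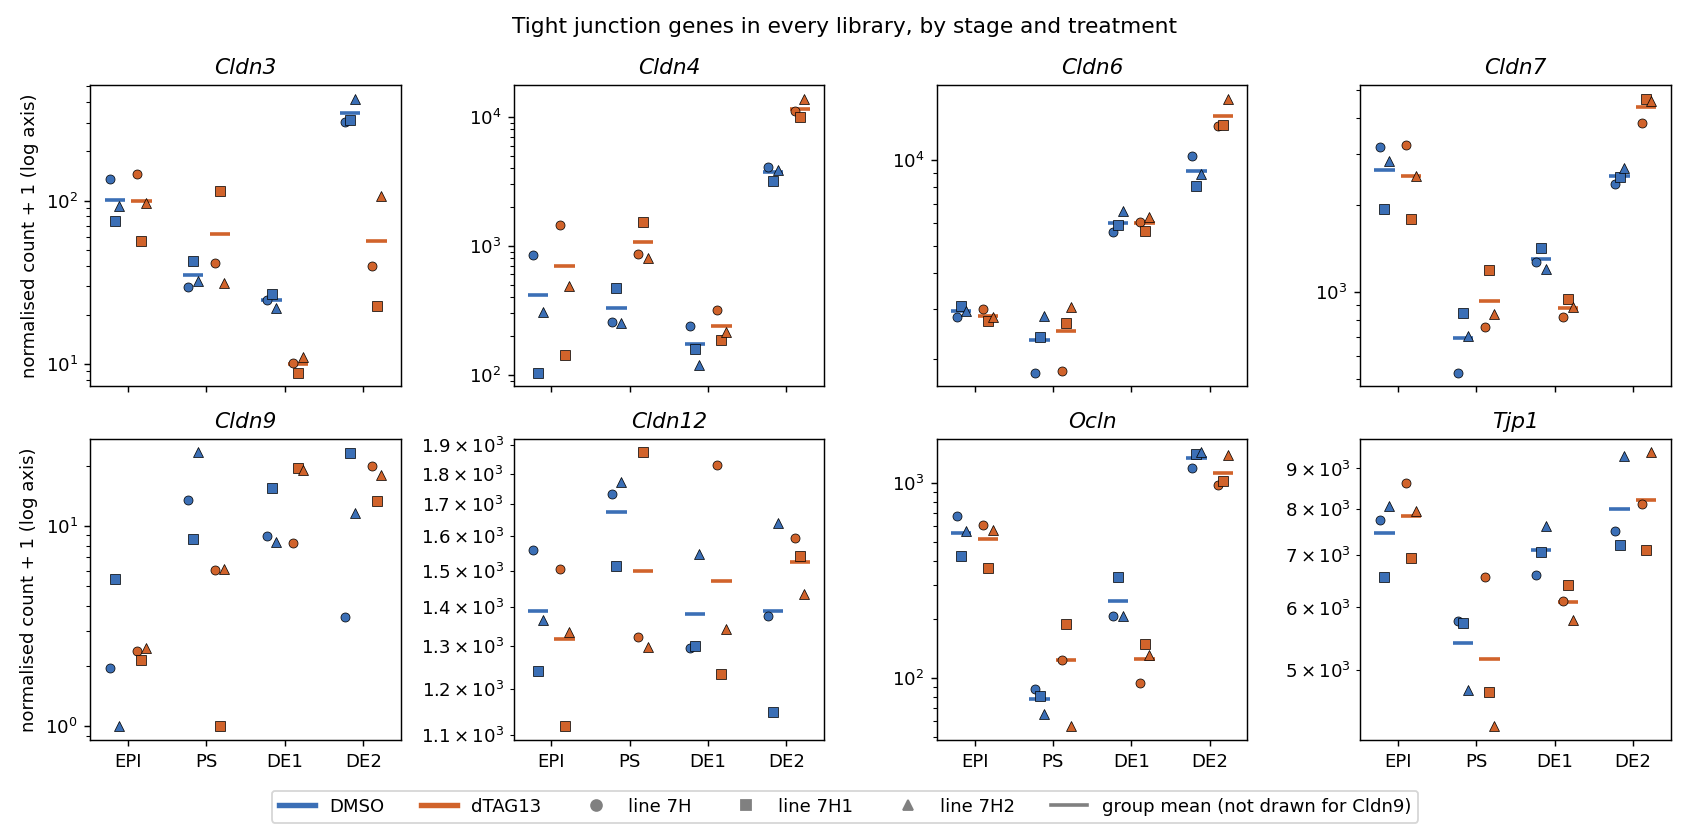
Normalised read count plus 1 (vertical axis, log scale, different in each panel) of the 8 members in every library, by stage (horizontal axis) and treatment (colour), with the lines 7H, 7H1 and 7H2 as circles, squares and triangles and group means as bars. Cldn3, Cldn4, Cldn6 and Cldn7 separate by treatment in DE2, and Cldn12 stays between 1120 and 1874 throughout.

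Depletion was then compared with vehicle at each stage. In EPI, PS and DE1 none of the 8 members was called, while 0.0865%, 0.219% and 7.76% of all genes were. The unadjusted p was under 0.05 for 534, 1197 and 2977 genes at these stages. In DE2, 3 of 8 were called (Cldn6 and Cldn7 higher, Cldn3 lower), against 17% of all genes, 8.65% higher and 8.31% lower. With the cell line as a block, limma called 1, 2, 4 and 4 members at the 4 stages, against 0.572%, 2.41%, 15.8% and 27.5% of all genes. The medians over the members were -0.06, 0.26, -0.11 and 0.4 on the log2 scale, beside -0.013, -0.005, 0 and -0.004 over all genes. The groups did not overlap for 0, 2, 4 and 4 members, against 8.24%, 12.6%, 33.1% and 31.7% of all genes. With libraries rescaled to equal totals the split over all genes in DE1 was 733 higher and 484 lower, beside 562 and 605 as deposited.

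Cldn4 (ENSMUSG00000047501) is on chromosome 5 (GRCm38, as all coordinates here, 134945119 to 134946934, minus strand) and Cldn3 (ENSMUSG00000070473) lies 39.3 kb away on the same chromosome (134986214 to 134987472, plus strand), with 0 annotated genes between them. Their start regions are shown because the neighbours rose together into DE2 and went opposite ways with dTAG13 there. Each is 250 bases before and 50 after the gene's start, 5′ to 3′ on the gene's strand, from RefSeq on GRCm38.p6, with capitals for CACCTG on either strand (CAGGTG where it lies on the other strand). CACCTG is the E-box core that Snail and Zeb repressors bind.
Cldn4, chr5:134946885-134947184, minus strand: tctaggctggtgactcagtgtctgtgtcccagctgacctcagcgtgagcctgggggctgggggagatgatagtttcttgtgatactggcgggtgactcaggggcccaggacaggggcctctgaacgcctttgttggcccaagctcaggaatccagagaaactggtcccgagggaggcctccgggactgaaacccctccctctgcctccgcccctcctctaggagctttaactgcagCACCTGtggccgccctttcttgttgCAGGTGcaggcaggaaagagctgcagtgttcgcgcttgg
Cldn3, chr5:134985964-134986263, plus strand: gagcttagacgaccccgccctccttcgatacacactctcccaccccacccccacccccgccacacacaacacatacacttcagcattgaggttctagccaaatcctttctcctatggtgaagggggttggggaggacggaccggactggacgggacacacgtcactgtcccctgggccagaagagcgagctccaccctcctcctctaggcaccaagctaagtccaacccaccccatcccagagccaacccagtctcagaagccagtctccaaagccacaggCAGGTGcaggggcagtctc
In the Cldn4 window the motif began at -14 and, on the other strand, at +12, and in the Cldn3 window at +32 on the other strand. The 8 members with a window have 12 in all. CACCTG was in 6 of these (of Cldn3, Cldn4, Cldn6, Cldn7 and Ocln) and in 20.2% of all 32851 promoter windows. The Ocln windows overlap and share a site, so the same E-box enters that count again. GC content ran from 45.3% to 68% in the member windows, beside a median of 52.7% over all windows, and enrichment was not tested. The OTX2 core TAATCC was in 0 of the 12 and in 7.06% of all windows. The FOXA motif TGTTTAC was also in 0 of the 12, against 3.65%, and the Grainyhead motif AACNGGTT in 1 (Cldn5), against 2.09%. Cldn9 has no window in the table used.

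Cldn4 was higher with dTAG13 in all 3 lines at each of the 4 stages. It read 4109, 3203 and 3889 in DE2 with DMSO and 11075, 9892 and 13850 with dTAG13, without overlap. In PS it read 258, 470 and 251 with DMSO and 869, 1525 and 799 with dTAG13, again without overlap. The means differed 3.11-fold in DE2 and 3.26-fold in PS.

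The call for Cldn4 turned on how its spread was estimated, which without the block was shared by all 8 groups. In DE2 the log2 difference was 1.63 with an SE of 0.68 (adjusted p = 0.115), and with the line as a block an SE of 0.12 (adjusted p = 4.35e-07). With only the DE2 groups in the fit and no block, Cldn4 was called (adjusted p = 0.000668). In PS the log2 difference was 1.7 with an SE of 0.68 (adjusted p = 0.511), and with the block an SE of 0.12 (adjusted p = 5.05e-06). With only the PS groups in the fit no member was called. The 3 lines differed widely in EPI, where Cldn4 read 847, 103 and 304 with DMSO and 1457, 142 and 490 with dTAG13. The range between lines was 8.25-fold and 10.2-fold there, 1.88-fold and 1.91-fold in PS, and 1.28-fold and 1.4-fold in DE2.

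Within a line the response was even: 1.75, 1.7 and 1.67 in PS and 1.43, 1.63 and 1.83 in DE2 on the log2 scale. With the block and any 1 line left out, Cldn4 stayed called in PS (adjusted p from 0.00138 to 0.00274) and DE2 (0.000115 to 0.000194). In EPI the differences were smaller, 0.78, 0.47 and 0.69 (block adjusted p = 0.0278), as in DE1 with 0.41, 0.24 and 0.83 (block adjusted p = 0.0115). Neither call held without every line: in EPI the block p was 0.128 to 0.377, and in DE1 0.0306 without 7H1, 0.0706 without 7H and 0.194 without 7H2.

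Cldn3 went the other way in the endoderm. In DE2 it read 300, 310 and 420 with DMSO and 38.8, 21.8 and 106 with dTAG13, every dTAG13 library below every DMSO library. It fell by 2.89 on the log2 scale (SE 0.49, adjusted p = 0.000247), and stayed called without any 1 line (adjusted p from 0.00349 to 0.0166). The DMSO mean was 6.18 times the dTAG13 mean, and 10.1 times without line 7H2, where the log2 difference was -3.34. In DE1 the levels were low and again separate, 23.8, 25.8 and 21.1 against 9.12, 7.85 and 9.99. That difference of -1.3 (SE 0.49) had an adjusted p of 0.122, and 0.0257 with the block, which was 0.0774 to 0.162 with a line left out.

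In PS and EPI Cldn3 did not separate by treatment. It read 28.7, 41.6 and 31.3 with DMSO and 40.5, 113 and 30.5 with dTAG13 in PS (log2 difference 0.62, SE 0.49, adjusted p = 0.802). An antisense gene, Wbscr25, overlaps Cldn3 and is not analysed here. Whether counting used the strand is not stated in the labels, and reads of this pair cannot be told apart.

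The ratio of Cldn4 to Cldn3 per kb put both responses together. In DE2 it was 9.5, 7.17 and 6.42 with DMSO and 198, 315 and 90.5 with dTAG13. In DE1 it was 6.93, 4.2 and 3.92 against 24.1, 16.4 and 14.8. The ratio was higher with dTAG13 in every line at every stage, and the treatments overlapped in EPI alone.

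**Figure D3:**
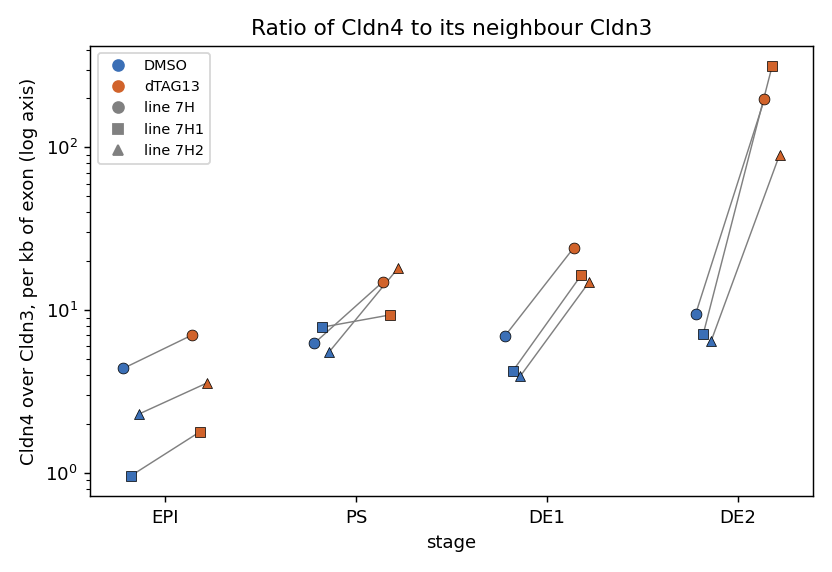
Ratio of Cldn4 to Cldn3, each per kb of exon (vertical axis, log scale), by stage (horizontal axis) and treatment (colour), with a grey line joining the DMSO and dTAG13 libraries of the same cell line (circle 7H, square 7H1, triangle 7H2). All joining lines go up, and the DE2 libraries with dTAG13 reach 90.5 to 315.

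Cldn6 rose with dTAG13 in DE2. It read 10318, 8085 and 8881 with DMSO and 13144, 13172 and 16336 with dTAG13, without overlap, a log2 difference of 0.64 (SE 0.16, adjusted p = 0.00717). The call was lost without 7H1 (adjusted p = 0.159) or 7H2 (0.0903), and with the block it held without any 1 line (0.000277 to 0.0114). At the other stages Cldn6 did not separate: in DE1 it read 5561, 5903 and 6591 against 6047, 5646 and 6294 (log2 difference 0, SE 0.16).

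Cldn7 changed direction between the endoderm days. In DE1 it read 1270, 1421 and 1202 with DMSO and 815, 943 and 883 with dTAG13, and in DE2 2359, 2502 and 2692 against 3828, 4663 and 4582. The groups did not overlap on either day. The DE2 rise was 0.79 (SE 0.21, adjusted p = 0.0114), lost without 7H2 (0.15) but held with the block without any 1 line (0.000644 to 0.00252). The DE1 difference of -0.56 (SE 0.21) was not called on all libraries without the block (adjusted p = 0.116). It was called with the block (0.000332), and without it when only the DE1 groups were fitted (0.00527). With the block the DE1 call held without any 1 line (0.00716 to 0.0167). In PS Cldn7 was higher in every line, 524, 846 and 702 against 756, 1185 and 837 (0.42, SE 0.21, adjusted p = 0.63, block 0.0143), and the block call was lost with any line left out (0.0956 to 0.228).

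Ocln in DE1 read 206, 327 and 207 with DMSO and 93, 148 and 130 with dTAG13, without overlap. The log2 difference was -0.98 (SE 0.33, adjusted p = 0.0712, block 0.00569). The block call was lost without 7H (0.0993) and held without 7H1 or 7H2. In DE2 the values met again, 1191, 1410 and 1438 against 976, 1021 and 1394 (-0.27, SE 0.33, adjusted p = 0.653).

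Tjp1 in DE1 was a little lower with dTAG13, 6602, 7053 and 7608 against 6110, 6408 and 5791, without overlap and not called (-0.21, SE 0.15, adjusted p = 0.472, block 0.112). In DE2 it read 7492, 7191 and 9328 against 8113, 7086 and 9433. The scaffold thus differed by 0.04 (SE 0.15, adjusted p = 0.912) where the claudins differed most.

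Cldn9, a claudin known from the inner ear, lies on chromosome 17 with its end 137 bases from that of Cldn6 on the opposite strand, and was low throughout. It passed the filter through 10 libraries and was listed at 0 in 2. In PS it read 12.5, 7.65 and 22.4 with DMSO and 5.07, 0 and 5.09 with dTAG13, without overlap and not called (-2.07, SE 0.77, adjusted p = 0.467). In EPI with DMSO it read 0.951, 4.48 and 0, and the rise into PS of 2.66 (SE 0.77, adjusted p = 0.014) was lost without 7H (0.0861) or 7H2 (0.344). Of the 31-base words in its transcripts 0.495% occur in Cldn6, whose level is far higher, and Cldn3 shares 0.407% of its words with Cldn4. The labels do not say how reads from such words were counted, and the low values of Cldn9, and of Cldn3 where Cldn4 is high, are uncertain.

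Cldn12, an atypical claudin that lacks the tail motif for ZO-1, was the flattest member. Its group means ran from 1318 to 1673, with neighbours in that order overlapping throughout, and it was called in none of the comparisons. In DE2 it read 1377, 1148 and 1639 with DMSO and 1593, 1541 and 1434 with dTAG13 (log2 difference 0.15, SE 0.16, adjusted p = 0.618).

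**Figure D4:**
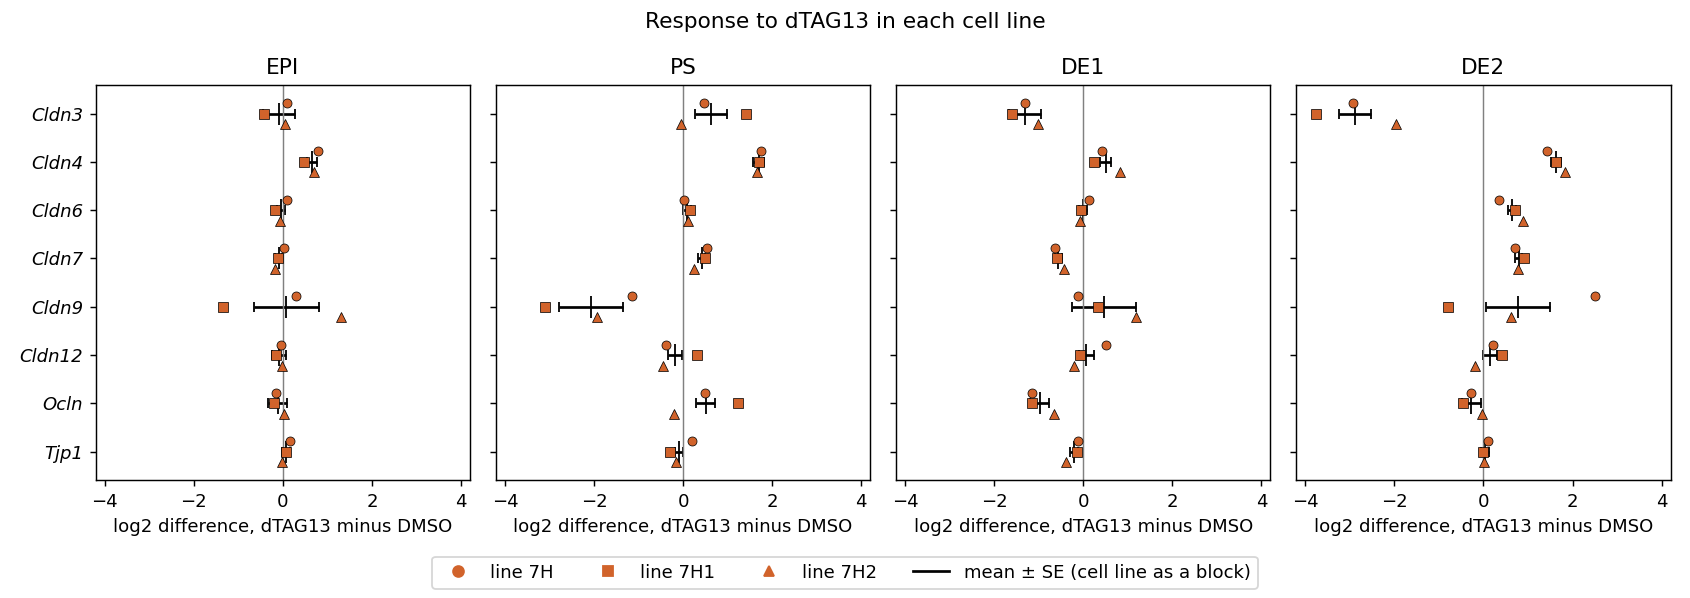
Log2 difference of dTAG13 minus DMSO (horizontal axis) for each member (vertical axis) at the 4 stages, with a point for each of the lines 7H (circle), 7H1 (square) and 7H2 (triangle). Black bars are the mean ± SE with the cell line as a block. Cldn4 lies above 0 in every line and stage, Cldn3 lies lowest in DE2, and Cldn7 is below 0 in DE1 and above it in DE2.

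The difference of the dTAG13 effect between successive stages was tested directly. Cldn7 alone of the 8 members was called, with an effect 1.35 higher in DE2 than in DE1 (SE 0.29, adjusted p = 0.00839), against 5.95% of all genes. It was not called without 7H2 (adjusted p = 0.147), and with the block it was called with all lines (1.31e-05) and without any 1 (0.0016 to 0.0036). No member was called for PS against EPI or DE1 against PS, where 0.0133% and 2.14% of all genes were. The unadjusted p was under 0.05 for 598 and 1791 genes there.

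With the block 1, 4 and 3 members were called in these differences, against 0.259%, 6.34% and 15% of all genes. Cldn4 responded more in PS than in EPI by 1.06 (block adjusted p = 0.0234), a call lost with any line left out (0.103 to 0.249). It responded less in DE1 than in PS by -1.21 (0.000646), and more in DE2 than in DE1 by 1.13 (0.00068). Both of these held without any 1 line. From PS to DE1 the effects on Cldn7 (-0.98, 0.000179), Ocln (-1.49, 0.00845) and Cldn3 (-1.93, 0.0396) also went down, and from DE1 to DE2 that on Cldn6 went up (0.65, 0.00388). Of these, Cldn7 held without any 1 line (0.00565 to 0.0169), Ocln was lost without 7H (0.115) or 7H1 (0.143), Cldn3 without any (0.0863 to 0.25), and Cldn6 without 7H1 (0.0805) or 7H2 (0.0924). With libraries rescaled to equal totals, the split over all genes for DE2 against DE1 was 338 higher and 552 lower, beside 439 and 456 as deposited. PS against EPI and DE1 against PS share the PS libraries, and DE2 against DE1 shares those of DE1.

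Other junction genes were called in both directions. Of 23 further tight junction genes tested, 2 rose and 4 fell in DE2 with dTAG13, with a median of -0.11, and 1 rose and 2 fell in DE1. With the block, 3 rose and 6 fell in DE2 and 4 rose and 5 fell in DE1. Of all genes, 17% were called in DE2 (8.65% higher and 8.31% lower) and 7.76% in DE1. With the block these shares were 27.5% and 15.8%, and 2.41% in PS. The same shares stand beside the counts of the lists that follow, and whether a list differs from them was not tested. Cgn, cingulin, a cytoplasmic plaque protein, rose from 2197, 1531 and 2245 to 4525, 4255 and 4143 (1.13, SE 0.19, adjusted p = 0.000237). Its relative Cgnl1, paracingulin, fell from 5292, 4408 and 5272 to 2686, 1058 and 2653 (-1.34, SE 0.37, adjusted p = 0.0161). Both pairs of groups were separate.

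Ybx3, a Y-box factor that binds ZO-1, rose by 0.69 (SE 0.1, adjusted p = 5.76e-05) in DE2 and fell by 0.42 (SE 0.1, adjusted p = 0.0132) in DE1. Ildr1, an angulin of tricellular junctions, fell in DE2 from 1051, 1373 and 1188 to 665, 524 and 738, and the scaffold Magi1 fell by 0.61 and symplekin (Sympk) fell by 0.35. In DE1 Jam2, a junctional adhesion molecule, rose from 10.6, 21.3 and 19.2 to 149, 128 and 214, and the scaffold Magi2 fell from 65.2, 11.5 and 55.9 to 0, 0 and 34.2. Of 9 other claudins tested from a list of 25, Cldnd1, a claudin-domain protein, rose in DE2 from 1713, 1687 and 1618 to 2775, 3639 and 3048 (0.91, SE 0.14, adjusted p = 8e-05), and none was called at the earlier stages. With the block 2 rose in DE2 and 1 in DE1.

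Polarity genes, 16 tested, gave 1 higher and 3 lower in DE2 and 0 and 3 in DE1, and with the block 2 and 6 in DE2 and 0 and 6 in DE1. The PAR6 subunit gene Pard6b fell on both days, from 2239, 2734 and 2678 to 1045, 1172 and 1099 in DE1 and from 5224, 7179 and 6354 to 2710, 3902 and 3200 in DE2. Its paralogue Pard6g fell in DE1 by 0.47 and rose in DE2 by 0.69. In DE2 Crb2, a Crumbs protein, fell by 1.45 and Pard3 by 0.47, and in DE1 Llgl2 fell by 0.41.

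Of 16 genes of adherens junctions and desmosomes, 1 rose and 3 fell in DE1, and 4 fell in DE2. With the block 5 rose in PS, 3 rose and 5 fell in DE1, and 4 rose and 4 fell in DE2. Cdh1, E-cadherin, fell in DE1 from 16954, 18784 and 19110 to 6862, 6437 and 6622 (-1.46, SE 0.08, adjusted p = 1.54e-10). In DE2 it read 43705, 44893 and 41456 against 42665, 40009 and 41271 (-0.07, SE 0.08, adjusted p = 0.63). Afdn, afadin, fell on both days by 0.86 and 0.44. Nectin3 rose in DE1 by 0.81 and fell in DE2 by 2.03, Dsc2 fell in DE1 by 0.73, and Dsg2 and Nectin1 fell in DE2 by 0.83 and 0.74.

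Among 19 epithelial transcription and splicing factors 1 was called in EPI (Ehf, lower), 7 in DE1 and 1 in DE2 (Tfap2c, higher), where the block called 2 higher and 2 lower. Grhl2, a Grainyhead factor of epithelia, fell in DE1 from 614, 506 and 530 to 232, 353 and 243 (-1.01, SE 0.19, adjusted p = 0.00136) and read 1288, 1161 and 1380 against 1372, 1089 and 1719 in DE2. In DE1 Grhl3 fell by 1.89, Esrp2 fell by 0.96, Klf5 fell by 0.95, and Tfap2c rose by 1.44. Hnf4a fell there from 27.4, 57.4 and 113 to 1.95, 0 and 0. Of 9 genes of epithelial-mesenchymal transition, Cdh2, N-cadherin, rose in DE2 by 2.76 (SE 0.25, adjusted p = 1.48e-07) and Vim fell by 1.18 (SE 0.35, adjusted p = 0.0244). With the block 2 rose and 2 fell in DE2, and 3 rose in DE1.

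Surface serine proteases and their inhibitors act on junction proteins, claudins among them. Of 5 tested, the protease genes St14 (matriptase) and Prss8 (prostasin) rose in DE2, by 0.66 (SE 0.15, adjusted p = 0.00453) and 0.62 (SE 0.17, adjusted p = 0.0127). Spint1, an inhibitor of matriptase, fell from 10069, 11676 and 10030 to 5559, 5614 and 6465 (-0.85, SE 0.11, adjusted p = 8.05e-06), and in DE1 by 0.45.

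Summed levels of marker lists for stages and other cell types moved in the same libraries. The lists share genes, such as Kdr (endothelium and mesoderm) and Eomes (primitive streak and trophectoderm), and a sum follows its most abundant genes. In DE2, Krt7 and Tfap2c of 10 trophectoderm markers were higher with dTAG13, and Ascl2 and Plac1 lower. The list had a median log2 difference of -1.04, and none of its genes was at 0 in every library. The summed level of these markers was 8160 to 10241 with DMSO and 11456 to 20166 with dTAG13. That of 10 definitive endoderm markers was 130434 to 179729 against 118518 to 152919, with 5 lower (Sox17, Gata4, Gata6, Cxcr4 and Prdm1). That of 10 visceral endoderm markers was 61182 to 108545 against 47651 to 72435, with 1 higher, 4 lower and Ttr at 0 with dTAG13. The last pair of sums overlapped, as did those of definitive endoderm. That of 10 primitive streak markers was 44162 to 67590 against 17950 to 27980, with 2 higher (Wnt3 and Mixl1), 2 lower (Gsc and Lhx1) and Mesp1 at 0 in both groups. The streak list nevertheless had a median log2 difference of 0.99, and with the block 5 genes were higher and 2 lower. Its sum fell with the abundant Lhx1 (means of 38988 against 13318) and Gsc (8964 against 1298). The summed level of 10 epiblast markers was 101769 to 111596 against 73055 to 89979, with Sox3 higher and Fgf5 lower.

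In DE1 the sums of 7 of 8 marker lists stood apart between treatments, again as DMSO against dTAG13. They were lower for visceral endoderm (55600 to 61344 against 25959 to 28057), primitive streak (93769 to 101988 against 74277 to 77994) and epiblast (76816 to 85589 against 60205 to 64918). In the visceral endoderm list Cited1 and Hnf4a were called lower. Their means, 93.1 and 65.8 against 24.8 and 0.65, are a small part of that sum. Of 10 streak genes 1 was called higher (Wnt3) and 0 lower, with a median log2 difference of 0.25. With the block 4 streak genes were higher and 2 lower. The mean of Lhx1, not called, went from 58068 to 33582. In the epiblast list Dnmt3b and Fgf5 were called lower, with a list median of 0.01. The sums were higher for trophectoderm (14963 to 15661 against 22728 to 24150, with Krt7 and Tfap2c higher and Ascl2 lower), for 9 endothelial markers (347 to 408 against 728 to 878), and for 10 markers each of neural cells (983 to 1252 against 1385 to 1885) and mesoderm (602 to 669 against 1084 to 1497). In the neural list Tubb3 was called higher (means of 77.1 against 623). Rax of the same list was called lower (120 against 0.669, adjusted p = 9.27e-08 by limma). Of the endothelial markers, Kdr rose by 2.52 (SE 0.63, adjusted p = 0.0147) and Tek by 2.16 (SE 0.63, adjusted p = 0.0377), 2 of 8 tested. Kdr (means of 92.4 against 529) is also in the mesoderm list and was the only gene called there. The definitive endoderm sums overlapped (119374 to 142233 against 94216 to 121422), with Prdm1 and Sox17 called lower. In DE2 the endothelial, neural and mesoderm sums overlapped. Called in these DE2 lists were Sox18 (endothelium), Rax and Neurod1 (neural) and Tbx6 (mesoderm), all lower, and Sox1 (neural), higher. In PS those of primitive streak (104083 to 110971 against 85510 to 99598), trophectoderm (14254 to 16068 against 8538 to 10760) and mesoderm (2789 to 5365 against 1471 to 2655) were lower with dTAG13 and that of visceral endoderm was higher (5990 to 6700 against 7786 to 9537). Of the genes in these lists only Lhx1, lower, was called in PS, and the trophectoderm list had a median of 0.34. In the definitive endoderm list, whose PS sums overlapped, Cxcr4 (-3.38, limma adjusted p = 8.73e-05) and Sox17 (-4.13, 0.000485) were called lower. In EPI only the endothelial sum stood apart (296 to 339 against 358 to 447), and none of its genes was called. The marker genes called in EPI were all lower. They were Gata6 (-1.9), Sox17 (-3.32) and Cxcr4 (-1.91) of definitive endoderm and Gsc (-1.85) of the streak list. The part of these lists in the claudin values was not tested.

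The genes most like each member over the 24 libraries, by Pearson's r of log2(value + 1), are given as a description. They were Bspry for Cldn3 (0.931), Sfn for Cldn4 (0.968), Snn and Prss8 for Cldn6 (0.984 and 0.982), and Pick1 for Cldn7 (0.96). For Ocln the nearest was Prkab2 (0.952), for Tjp1 Bbx (0.91) and for Cldn9 Nfatc1 (0.845). Cldn12 had no close likeness, with Bag1 at 0.593. Cldn3 and Cldn4, though neighbours, correlated at 0.496.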

How the data were processed

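The deposited signal values are normalised read counts of 18205 genes, computed by the authors. DESeq2 and mm10 are named, without versions, in the submitters' processing notes. The aligner, the counter and any use of the strand were not given in the sources used here. The values are not whole numbers, and count models were not applied. Exon lengths and coordinates come from GENCODE M21 (GRCm38), matched by 18116 of the gene IDs.

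One limma model (version 3.58.1, R 4.3.3, statmod 1.5.0) of log2(value + 1) covered the 8 groups, using an intensity trend and robust variance moderation, with 16 residual degrees of freedom. The filter kept the 15037 genes reaching 10 in 3 or more libraries. Tests were two-sided with Benjamini-Hochberg adjustment over all of these. Replicate numbers name cell lines in the labels and therefore pair the treatments. Same-line libraries deviated together, with r of 0.0703 to 0.381. The block on line leaves 8 residual degrees of freedom for the dTAG13 comparisons. The model was tested on simulated data. Python 3.11.15, pandas 2.3.3 and matplotlib 3.10.9 made the tables and figures.

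Members, lists and tests were chosen with earlier results of these data known. By rule, listed genes called with dTAG13 could be named, up to 6 per comparison by p, and 3 genes of highest r per member, of which the closest are given. A result of the pathway lists that the rule would name is not reported here.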

Additional observations from a re-analysis of the deposited data

Results flagged for a closer look

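The response of Cldn7 to dTAG13 differed between the endoderm days by a test of the difference itself. The effect was 1.35 higher on the log2 scale in DE2 than in DE1 (limma, SE 0.29, adjusted p = 0.00839), with Cldn7 lower in 3 of 3 lines in DE1 and higher in 3 of 3 lines in DE2. Groups of 3 libraries are too small for a search for libraries that stand apart.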

How the results depend on the processing

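No log2 fold change of a member changed direction while called, under any alternative run. Counts over all genes moved more. Without 1 line, genes called with dTAG13 ran from 3 to 4 in EPI, 9 to 20 in PS, 380 to 702 in DE1 and 998 to 1770 in DE2, and members in DE2 from 1 to 3. Over stage steps in DMSO they ran from 1349 to 3081 from EPI to PS, where members ran from 2 to 5, and from 3915 to 4648 from DE1 to DE2. For differences of the dTAG13 effect they ran from 0 to 2 for PS against EPI, 78 to 136 for DE1 against PS and 170 to 319 for DE2 against DE1, where members ran from 0 to 2. Fewer samples enter these fits.

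With the replicate block, genes called numbered 86 in EPI, 362 in PS, 2376 in DE1 and 4139 in DE2, beside 13, 33, 1167 and 2551 without it, and members 1, 2, 4 and 4. Differences of effects gave 39, 954 and 2258 genes and 1, 4 and 3 members, beside 2, 322 and 895 genes and 0, 0 and 1 members. The block changed no call of a member in the steps between stages.

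With only the groups compared in the fit, 2 genes were called in EPI, 11 in PS, 2304 in DE1 and 1564 in DE2, and 0 and 512 in the first 2 differences of effects. That setting called 2 members in DE1 (Cldn7 and Ocln) and 2 for DE2 against DE1 (Cldn6 beside Cldn7), Cldn4 in DE2 (adjusted p = 0.000668), and Cldn4 from PS to DE1 in DMSO (-0.92, adjusted p = 0.0413), for 5 members called in that step. Without trend or robust fitting, 4 genes were called in EPI and 0 for PS against EPI. A pseudocount of 5 gave 1 gene there and quantile normalisation 0, and quantile normalisation called 1 member in DE1 (Ocln, adjusted p = 0.0477). The cause was not tested. Other filters on low values changed no call of a member tested, and Cldn9 was not tested with a minimum of 50. The replicate block without each line in turn was chosen after seeing the data. Depth limits Cldn9 and, in DE1, Cldn3.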
